A study of Mus musculus with 24 samples.

Results

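The genes described here encode the carriers that move amino acids, and a few related small molecules, across the membranes of glucagon-secreting alpha cells and insulin-secreting beta cells of the mouse pancreas. They were chosen by gene symbol alone, as every row of the deposited expression table that belongs to the Slc1, Slc3, Slc6, Slc7, Slc36, Slc38 or Slc43 family, together with Slc16a10. The choice gave 31 of the 14027 genes in the table. Of these, 30 are transporters or transporter subunits, and Slc7a6os is a neighbouring gene on the opposite strand of Slc7a6 that shares its name but is not a carrier. Other genes of these families were not analysed here.

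Amino acid transporters belong to several solute carrier families that differ in what they carry and in what drives them. The Slc7 light chains reach the cell surface bound to a heavy chain of the Slc3 family and swap one amino acid for another. Many Slc38 and Slc6 carriers use the sodium gradient to concentrate amino acids inside the cell. Slc16a10 and Slc43a2 let amino acids pass down their gradient. In the islet, arginine, glutamine, alanine and leucine are known as stimuli or fuels for hormone secretion, and glutamine uptake through Slc38a5 is known to support alpha cell proliferation in mice when glucagon signalling is blocked.

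The study sequenced ribosome-depleted total RNA from alpha cells and beta cells of a triple reporter mouse strain, the only genotype in the labels. Islets were isolated at zeitgeber times (ZT, in hours) 0, 4, 8, 12, 16 and 20, with 2 libraries for each cell type and time, which gave 12 alpha and 12 beta libraries. The labels give no treatment, age or sex, nor the promoters that drive the reporters, nor any pooling of animals. They are silent on the origin of the 2 replicates of each group, so every p-value here reflects spread between libraries that may be technical. The comparisons ask which transporters differ between the cell types and which change over the day.

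The libraries held 4944982 to 12364190 reads assigned to genes. All 5 alpha markers were higher in alpha libraries and all 7 beta markers were higher in beta libraries. By the rule used below for these counts, 11.2% of all genes were higher in alpha and 9.54% higher in beta cells. The alpha libraries also carried more RNA of PP and delta cell markers: 3 of 3 PP markers were higher there, with summed levels of 27800 to 59500 RPKM in alpha and 359 to 1730 RPKM in beta libraries, and 5 of 5 delta markers were higher, with sums of 2510 to 5180 RPKM in alpha and 645 to 1420 RPKM in beta libraries. Of the stromal markers, 4 of 5 were higher in alpha libraries (4.21 to 7.35 RPKM against 0.374 to 1.03 RPKM in beta libraries), 2 of 2 duct markers (25.6 to 78.6 RPKM against 5.03 to 19.2 RPKM in beta libraries) and 2 of 2 glial markers (0.852 to 3.87 RPKM against 0.171 to 0.894 RPKM in beta libraries) as well, while no acinar, endothelial or immune marker differed by the rule used below. Insulin transcripts were the most frequent in the alpha library at ZT4, replicate 1, where Ins2 reached 2.09% of its mean in beta cells, and Gcg was the most frequent in the beta library at ZT4, replicate 1, at 1.52% of its mean in alpha cells. Immediate early genes, 11 of 14 of which were higher in alpha cells, ranged in sum from 360 to 2590 RPKM over the alpha libraries and from 190 to 1040 RPKM over the beta libraries, with the highest sum at ZT8, replicate 2, in both. The part of these other cell types, and of the immediate early response, in the differences below was not tested unless a value is given. In bulk samples, fewer cells of a type and less RNA per cell cannot be told apart.

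The promoters shown next belong to Slc38a5, which leads the cell type comparison, and to 2 members whose levels are set beside the targets of the amino acid response below. All are RefSeq promoter windows of the GRCm38.p6 build, from 250 bases before to 50 bases after a transcription start, written 5′ to 3′ on the gene's strand. The first is that of Slc38a5 (chrX:8271131-8271430, plus strand), the member with the largest fold towards alpha cells, with an E-box (CACGTG) in capitals. In the GENCODE M21 annotation this gene starts at 8271133, so nearly all of the window, with the E-box, lies inside the gene there. The other 2 are those of Slc1a4 (chr11:20332664-20332963, minus strand) and Slc7a11 (chr3:50443564-50443863, minus strand), both higher in beta cells, with the letters TGATGNAA or their reverse complement in capitals, the core of the C/EBP-ATF composite element that ATF4 binds with a C/EBP partner.
Slc38a5: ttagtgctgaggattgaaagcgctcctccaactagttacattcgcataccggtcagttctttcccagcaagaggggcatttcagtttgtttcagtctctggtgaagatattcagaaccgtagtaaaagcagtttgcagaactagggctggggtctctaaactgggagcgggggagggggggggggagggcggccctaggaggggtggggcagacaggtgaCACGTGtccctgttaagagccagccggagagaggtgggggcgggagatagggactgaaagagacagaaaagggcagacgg
Slc1a4: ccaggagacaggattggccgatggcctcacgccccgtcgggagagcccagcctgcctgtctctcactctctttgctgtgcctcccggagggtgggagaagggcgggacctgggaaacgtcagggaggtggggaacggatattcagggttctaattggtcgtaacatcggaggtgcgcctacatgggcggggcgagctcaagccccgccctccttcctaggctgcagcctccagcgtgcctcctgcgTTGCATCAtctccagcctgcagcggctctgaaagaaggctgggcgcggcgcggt
Slc7a11: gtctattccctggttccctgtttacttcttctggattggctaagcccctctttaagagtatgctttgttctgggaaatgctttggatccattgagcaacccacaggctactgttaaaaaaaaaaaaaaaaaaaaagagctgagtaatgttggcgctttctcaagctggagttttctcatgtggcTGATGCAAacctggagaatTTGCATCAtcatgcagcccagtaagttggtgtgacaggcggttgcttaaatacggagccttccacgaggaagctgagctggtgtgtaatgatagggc
Slc7a11 holds the motif on both strands in this window, and Slc1a4 holds it on one. Of the 31 members, 25 had at least one such window, and 3 of these 25 held the C/EBP-ATF letters: Slc1a4 and Slc7a11, which were higher in beta cells, and Slc7a7, which was higher in alpha cells. These letters were in 4 of the 37 windows of the members and in 3.97% of all 32851 promoter windows. Of these 4 windows, 2 are overlapping windows of Slc7a7 that share a site. The E-box was in windows of 4 members (Slc36a1, Slc38a5, Slc38a7 and Slc7a14) and in 7.15% of all windows. The D-box TTATGTAA was in no member's window and in 0.938% of all windows. A match describes letters in the window and shows no binding.

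Alpha and beta cells differed in the level of most carriers, and 12 of the 31 members differed by 2-fold or more. Levels are read counts scaled to gene length and library size (RPKM), which can be compared between genes as far as the lengths hold. The lengths implied by the deposited values differed from the exon lengths of GENCODE M21 for some members. They were 11715 against 9135 bases for Slc7a2 and 7527 against 11530 bases for Slc7a1. Ranks, shares of a sum and ratios between genes carry this limit. A member was called when limma's test, with time as a covariate, gave a Benjamini-Hochberg adjusted p under 0.05 over all 14027 genes and a fold of at least 2. The fold comes from the deposited log2 values, which carry a prior count and so understate the fold of genes with few reads. Of the members, 6 were called higher in alpha cells (19.4%, against 11.2% of all genes) and 6 higher in beta cells (19.4%, against 9.54%), together 38.7%, against 20.7% of all genes. In 14 members (45.2%, against 26.0%), the 12 alpha and the 12 beta libraries did not overlap. The median size of the log2 difference was 0.751 over the members and 0.421 over all genes. At any fold, 30 of 31 members passed the adjusted p, as did 74.9% of all genes.

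**Figure D1:**
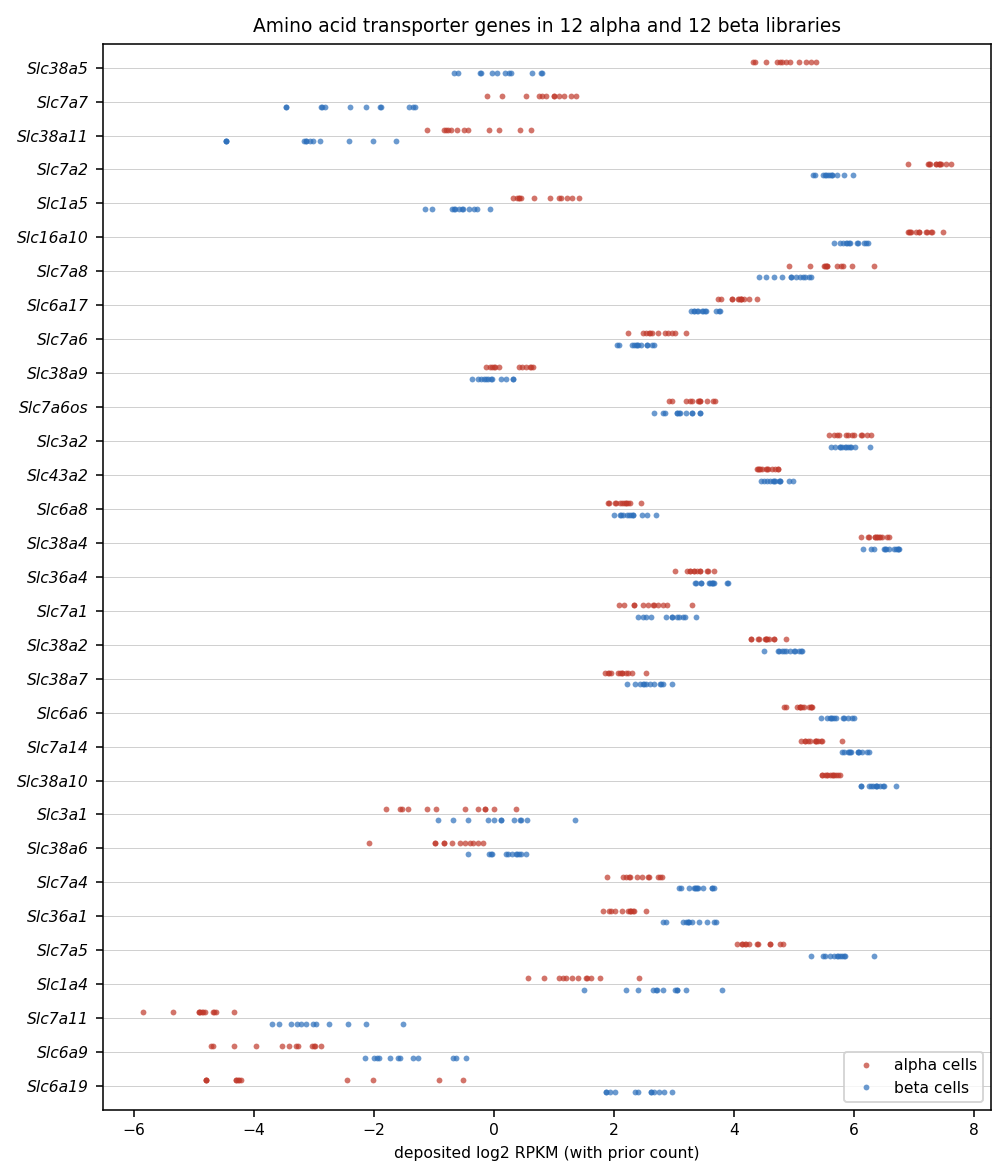
Deposited log2 RPKM (horizontal axis) of each of the 31 genes in every library, with 12 alpha libraries in red above 12 beta libraries in blue for each gene. The points of Slc38a5, Slc7a2 and Slc16a10 lie to the right in alpha cells, those of Slc6a19, Slc7a5 and Slc36a1 to the right in beta cells, and those of Slc3a2 overlap.

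The summed level of all members was of like size, at 729 to 960.6 RPKM in alpha and 651.7 to 805.2 RPKM in beta libraries, but different carriers led it. In alpha cells, Slc7a2 held 20.6% of the sum, Slc16a10 17.5% and Slc38a4 10.4%. In beta cells, Slc38a4 held 13.4%, Slc38a10 11.8%, Slc7a14 9.27% and Slc16a10 8.99%, while Slc7a2 held 6.96%.

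**Figure D2:**
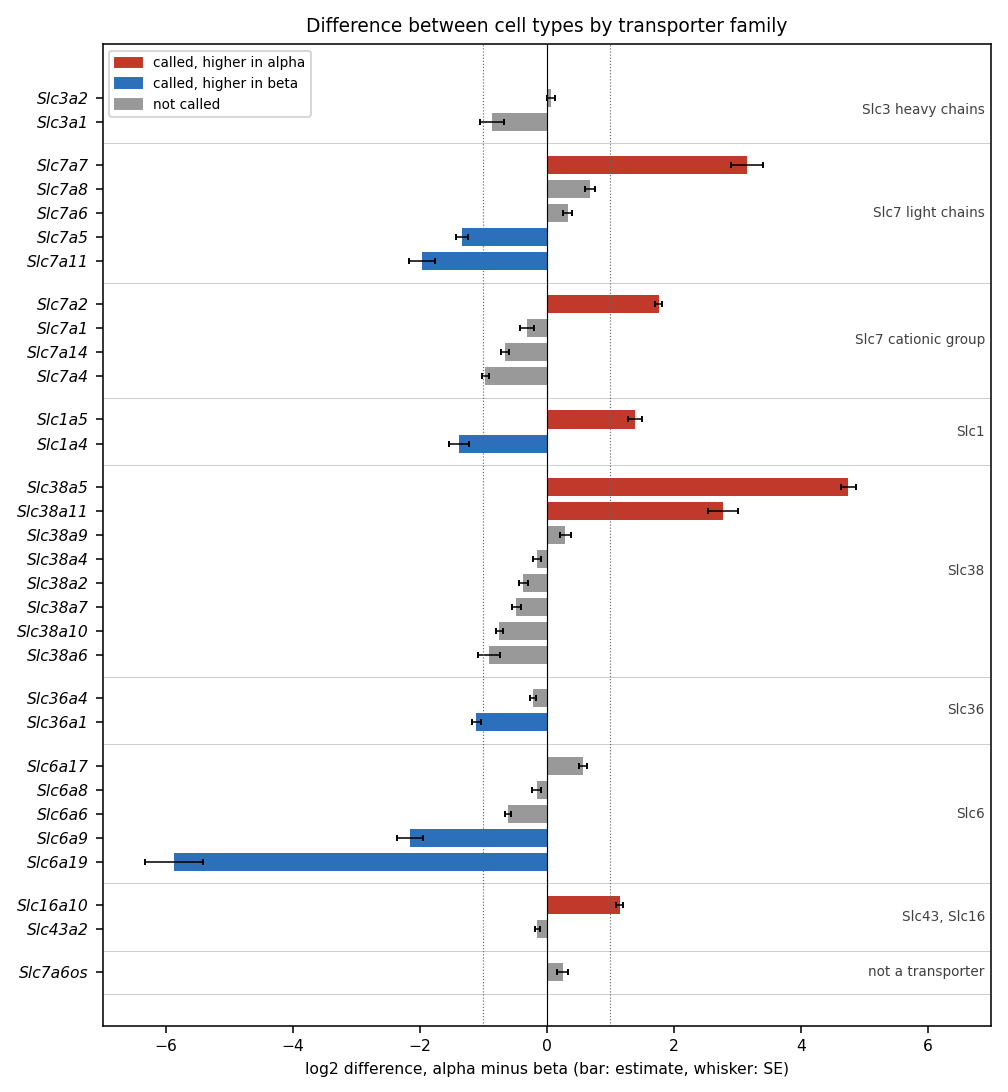
Log2 difference between the cell types, alpha minus beta (horizontal axis), for each gene, grouped by family; bars are limma estimates, whiskers their SE, and dotted lines mark a 2-fold difference. Red bars are genes called higher in alpha cells, blue bars genes called higher in beta cells and grey bars genes not called; the extremes are Slc38a5 (4.75) and Slc6a19 (-5.88).

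The heavy chains carry the light chains to the cell surface. Slc3a2, which encodes the CD98 heavy chain shared by most light chains, was at 62.0 ± 9.59 RPKM in alpha cells against 58.8 ± 7.32 RPKM in beta cells (SD, n = 12 each), the only member without an adjusted p under 0.05 (log2 difference 0.07, SE 0.0647, limma adjusted p = 0.34). Its means differed in that direction at 3 of 6 times. The size depended on the scaling: with quantile normalization the log2 difference was 0.32 (adjusted p = 2.44e-07), still far from 2-fold. Slc3a1, the heavy chain of the cystine and dibasic amino acid carrier of kidney and gut, was low in both (0.585 ± 0.323 RPKM in alpha cells against 1.09 ± 0.530 RPKM in beta cells; log2 difference -0.86, adjusted p = 0.000328). It overlaps Prepl on the other strand, which averaged 30.6 RPKM in alpha cells against 57.4 RPKM in beta cells with a log2 difference of -0.91, and without the strand setting of the counting the reads of this pair cannot be told apart.

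The light chains diverged. Slc7a5 (LAT1, mm10 chr8:121881150-121907694, minus strand), an exchanger of leucine and other large neutral amino acids, ranged from 16.5 to 28.2 RPKM with a median of 19.96 in alpha libraries, and from 39.2 to 80.8 RPKM with a median of 53.2 in beta libraries. Every beta library lay above every alpha library, and the mean was 21.1 ± 3.96 RPKM in alpha cells against 53.5 ± 10.2 RPKM in beta cells (log2 difference -1.34, SE 0.0941, 2.54-fold lower in alpha cells, limma adjusted p = 1.12e-11). Slc7a8 (LAT2), which carries a wider range of neutral amino acids, pointed the other way below the 2-fold threshold: it was at 30.4 to 80.9 RPKM (median 46.95) in alpha and at 21.5 to 38.9 RPKM (median 31.9) in beta libraries, with some overlap (log2 difference 0.68, adjusted p = 2.60e-07).

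Within a library, the ratio of Slc7a5 to Slc7a8 separated the cell types. It was 0.282 to 0.794 (median 0.38) in alpha libraries and 1.37 to 2.61 (median 1.60) in beta libraries. Slc7a8 exceeded Slc7a5 in every alpha library, and Slc7a5 exceeded Slc7a8 in every beta library.

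**Figure D3:**
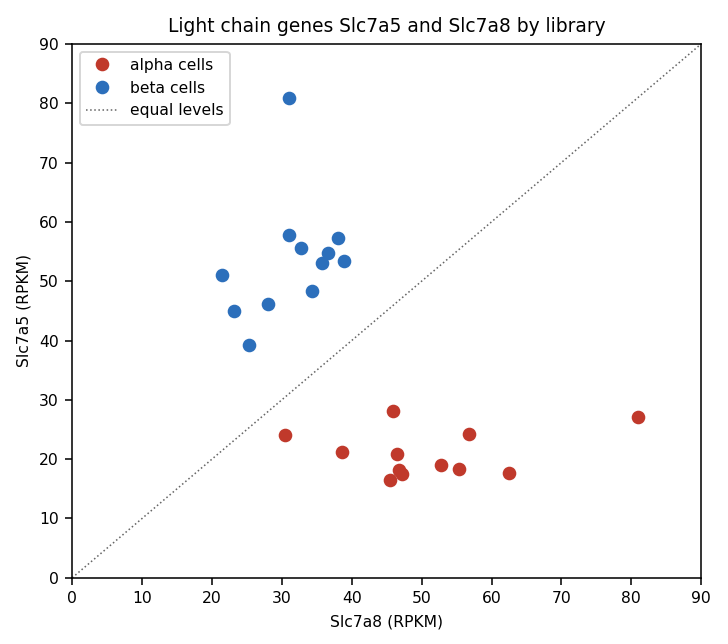
Slc7a5 (vertical axis, RPKM) against Slc7a8 (horizontal axis, RPKM) in each of the 12 alpha (red) and 12 beta (blue) libraries, with a dotted line of equal levels. All alpha libraries lie under the line, at ratios of 0.282 to 0.794, and all beta libraries above it, at 1.37 to 2.61.

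Other light chains were scarcer. Slc7a7 (y+LAT1, chr14:54369442-54417780, minus strand), which exports arginine and lysine in exchange for neutral amino acids and sodium, was at 0.83 to 2.49 RPKM (median 1.82) in alpha and at 0 to 0.312 RPKM (median 0.119) in beta libraries, where it had 0 to 7 reads. The groups did not overlap (log2 difference 3.15, SE 0.252, 8.86-fold higher in alpha cells, adjusted p = 1.2e-10), and the difference was 1.26 with log2(RPKM + 1). It shares genome sequence with Oxa1l on the other strand, and the strand setting of the counting is not given in the sources used here, so reads of the pair cannot be told apart; Oxa1l averaged 12.4 RPKM in alpha cells against 9.66 RPKM in beta cells. Its close relative Slc7a6 (y+LAT2) was at 6.68 ± 1.26 RPKM in alpha cells against 5.28 ± 0.699 RPKM in beta cells (log2 difference 0.33), and the neighbour Slc7a6os at 10.2 ± 1.66 RPKM in alpha cells against 8.62 ± 1.45 RPKM in beta cells.

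Slc7a11 (xCT), the cystine and glutamate exchanger that feeds glutathione synthesis, was near the detection limit: it had 0 to 4 reads per alpha library and 7 to 34 reads per beta library, or 0 to 0.0322 RPKM (median 0.0170) in alpha and 0.06 to 0.331 RPKM (median 0.101) in beta libraries. The groups did not overlap (log2 difference -1.97, SE 0.204, adjusted p = 9.41e-09), but the call was lost with log2(RPKM + 0.1) and with log2(RPKM + 1), where the log2 difference was -0.15.

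Among the cationic carriers, Slc7a2 (CAT2, chr8:40862396-40922308, plus strand), which takes up arginine, lysine and ornithine, was the most abundant member of all in alpha cells. It ranged from 120 to 196.5 RPKM (median 168.9) in alpha libraries and from 39.8 to 63.2 RPKM (median 48.1) in beta libraries. These ranges did not overlap, and the difference was 1.65 to 1.91 on the log2 scale at each of the 6 times (overall 1.76, SE 0.0546, 3.39-fold higher in alpha cells, adjusted p = 3.80e-18). The related Slc7a1 (CAT1) was low in both, at 6.13 ± 1.53 RPKM in alpha cells against 7.55 ± 1.58 RPKM in beta cells, so the ratio of Slc7a2 to Slc7a1 was 18.9 to 37.2 in alpha and 4.39 to 9.92 in beta libraries. Slc7a4 and Slc7a14, relatives of these carriers, were both lower in alpha cells without reaching 2-fold. Slc7a4 stood just under that limit, at 3.66 to 6.96 RPKM in alpha and 8.42 to 12.7 RPKM in beta libraries with no overlap (1.96-fold lower in alpha cells, adjusted p = 8.05e-13), and Slc7a14 averaged 41.2 ± 5.57 RPKM in alpha cells against 65.1 ± 6.74 RPKM in beta cells (log2 difference -0.66, adjusted p = 3.56e-09).

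The sodium-coupled Slc38 family held the member with the largest fold towards alpha cells. Slc38a5 (SNAT5, chrX:8271133-8280179, plus strand), a carrier of glutamine, asparagine, histidine and serine that can run in both directions, ranged from 19.8 to 41.1 RPKM (median 28.5) in alpha libraries and from 0.546 to 1.65 RPKM (median 0.996) in beta libraries. The lowest alpha library was far above the highest beta library, and the fold was 26.9 higher in alpha cells (log2 difference 4.75, SE 0.124, adjusted p = 2.33e-19), with log2 differences of 4.44 to 5.37 over the 6 times and 3.89 overall with log2(RPKM + 1). In beta libraries Slc38a5 stood at 1.84% to 5.58% of its mean in alpha cells (median 3.37%), where Gcg stood at a median of 0.0976%. On the same measure the median was 0.112% for Irx1, 0.981% for Ppy (up to 4.5%) and 33.3% for Sst. The part of RNA from other cells in the beta level of Slc38a5 was not tested.

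Slc38a11, a family member whose cargo is little studied, was also higher in alpha cells at a low level: 0.419 to 1.49 RPKM (median 0.632) in alpha and 0 to 0.279 RPKM (median 0.0715) in beta libraries, where it had 0 to 11 reads (log2 difference 2.77, SE 0.239, adjusted p = 4.71e-10). The groups did not overlap. The call was lost with log2(RPKM + 1), at a log2 difference of 0.68.

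The more abundant Slc38 genes differed less. Slc38a4 (SNAT4), a system A carrier, was the leading member in beta cells and was close in both, at 83.7 ± 7.71 RPKM in alpha cells against 94.2 ± 12.2 RPKM in beta cells (log2 difference -0.16, adjusted p = 0.0273), a direction that turned under quantile normalization (0.10). Slc38a10 was at 44.1 to 54.8 RPKM (median 49.3) in alpha and 69.3 to 104.7 RPKM (median 83.1) in beta libraries without overlap (1.68-fold lower in alpha cells, adjusted p = 3.19e-11). Slc38a2 (SNAT2), the system A carrier that rises under amino acid shortage, averaged 23.2 ± 2.74 RPKM in alpha cells against 30.0 ± 3.77 RPKM in beta cells (log2 difference -0.37, adjusted p = 7.86e-05). Slc38a7, the lysosomal glutamine exporter, and Slc38a9, the lysosomal arginine sensor of the kinase complex mTORC1, were at 4.31 and 1.20 RPKM in alpha cells against 6.06 and 0.970 RPKM in beta cells, and Slc38a6 was under 1.5 RPKM in every library.

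Both Slc1 members were called, in opposite directions. Slc1a5 (ASCT2), an exchanger of glutamine and other neutral amino acids, was at 1.20 to 2.61 RPKM (median 1.70) in alpha and 0.403 to 0.909 RPKM (median 0.632) in beta libraries without overlap (log2 difference 1.39, SE 0.113, 2.61-fold higher in alpha cells, adjusted p = 1.80e-10), a call lost with log2(RPKM + 1), at 0.74. Slc1a4 (ASCT1, chr11:20302180-20332713, minus strand), which carries alanine, serine, cysteine and threonine, was at 1.44 to 5.28 RPKM (median 2.51) in alpha and 2.77 to 14.0 RPKM (median 6.78) in beta libraries. These ranges overlapped, although the mean was lower in alpha cells at 6 of 6 times (log2 difference -1.39, SE 0.156, 2.62-fold, adjusted p = 4.34e-08). The library at ZT4, replicate 2, was the highest for Slc1a4 in both cell types, at 5.28 RPKM in alpha cells against 14.0 RPKM in beta cells. The difference was smallest at ZT8 (log2 -0.30), where the beta libraries were at 2.77 and 4.55 RPKM, and largest at ZT16 (log2 -1.86).

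Both Slc36 members were lower in alpha cells, but only Slc36a1 was called. Slc36a1 (PAT1), known for moving small neutral amino acids out of the lysosome, was at 3.49 to 5.80 RPKM (median 4.73) in alpha and 7.01 to 13.0 RPKM (median 9.47) in beta libraries without overlap (log2 difference -1.11, SE 0.0748, 2.16-fold lower in alpha cells, adjusted p = 5.36e-12). With log2(RPKM + 1) the log2 difference was -0.97, under the 2-fold limit. Slc36a4 averaged 10.4 ± 1.27 RPKM in alpha cells against 12.2 ± 1.498 RPKM in beta cells (log2 difference -0.22, adjusted p = 0.000553).

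The Slc6 family held the member with the largest fold towards beta cells. Slc6a19 (chr13:73679745-73704865, minus strand), the sodium-dependent carrier of neutral amino acids known from gut and kidney and mutated in Hartnup disease in humans, was at 0 to 0.667 RPKM (median 0.0164) in alpha libraries and at 3.60 to 7.84 RPKM (median 5.68) in beta libraries. The alpha libraries were uneven: 3 had no read, 5 were between 0.0147 and 0.0179 RPKM, and 4 stood higher, at 0.6665 RPKM at ZT16, replicate 1, 0.4955 RPKM at ZT0, replicate 1, 0.2125 RPKM at ZT4, replicate 1, and 0.1475 RPKM at ZT20, replicate 2. At those 4 libraries it stood at 12.2%, 9.06%, 3.89% and 2.70% of its mean in beta cells, where Ins2 stood at 1.45%, 0.425%, 2.09% and 0.696%. The groups did not overlap and the direction was the same at 6 of 6 times (log2 difference -5.88, SE 0.456, adjusted p = 1.88e-10), but the size depends on the prior count at so few alpha reads: it was -2.50 with log2(RPKM + 1).

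Slc6a9 (GlyT1), a glycine carrier, had 1 to 14 reads in alpha and 21 to 73 reads in beta libraries, or 0.0181 to 0.115 RPKM (median 0.0776) in alpha and 0.205 to 0.705 RPKM (median 0.315) in beta libraries. The groups did not overlap (log2 difference -2.15, SE 0.205, adjusted p = 2.48e-09), and the call was lost with log2(RPKM + 1), at -0.36. It overlaps Ccdc24 and B4galt2 on the other strand, which were higher in alpha cells (Ccdc24 at 1.66 RPKM in alpha cells against 0.991 RPKM in beta cells, and B4galt2 at 4.01 RPKM in alpha cells against 2.14 RPKM in beta cells). The taurine carrier Slc6a6 was at 28.7 to 39.6 RPKM (median 34.7) in alpha and 43.8 to 64.1 RPKM (median 51.6) in beta libraries without overlap (1.52-fold lower in alpha cells, adjusted p = 2.18e-10). Slc6a17, a carrier of neutral amino acids on synaptic vesicles in neurons, was at 16.9 ± 2.12 RPKM in alpha cells against 11.35 ± 1.34 RPKM in beta cells (log2 difference 0.57, adjusted p = 2.25e-08), and the creatine carrier Slc6a8 was at 4.39 RPKM in alpha cells against 4.91 RPKM in beta cells.

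Of the carriers that need no ion gradient, Slc16a10 (TAT1, chr10:40033532-40142258, minus strand), which lets phenylalanine, tyrosine and tryptophan pass, was at 120.4 to 179.5 RPKM (median 135.8) in alpha and 50.9 to 75.7 RPKM (median 60.9) in beta libraries. Again no ranges overlapped, and the log2 difference was 1.02 to 1.24 at every time (overall 1.15, SE 0.053, 2.22-fold higher in alpha cells, adjusted p = 4.73e-15). Slc43a2 (LAT4), a carrier of branched-chain amino acids, phenylalanine and methionine, averaged 23.5 ± 2.11 RPKM in alpha cells against 26.0 ± 2.89 RPKM in beta cells (log2 difference -0.15, adjusted p = 0.00445), and its direction turned under quantile normalization (0.05).

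Some members also changed over the day. The median fitted swing from trough to peak was 1.39-fold in alpha and 1.32-fold in beta cells over the members, and 1.28-fold and 1.3-fold over all genes. A cosine with a period of 24 h was fitted to each cell type, and a rhythm was called at an adjusted p under 0.05 over all genes. In alpha cells, 5 of 31 members had a rhythm (16.1%, against 9.66% of all genes), and in beta cells also 5 (16.1%, against 16% of all genes). The share in beta cells was near that of all genes. Slc7a4 was called in both, as were 4.15% of all genes, and 9 members were called in either (29.0%, against 21.5%). The rhythm differed between the cell types in 0 members by limma's test of that difference, as in 0.0713% of all genes, and 5 members had an unadjusted p under 0.05. A test with no cosine, of the interaction of cell type and time, also gave 0 members and 0.0143% of all genes (5 members unadjusted), so the members called in one cell type are not shown to differ from the other.

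**Figure D4:**
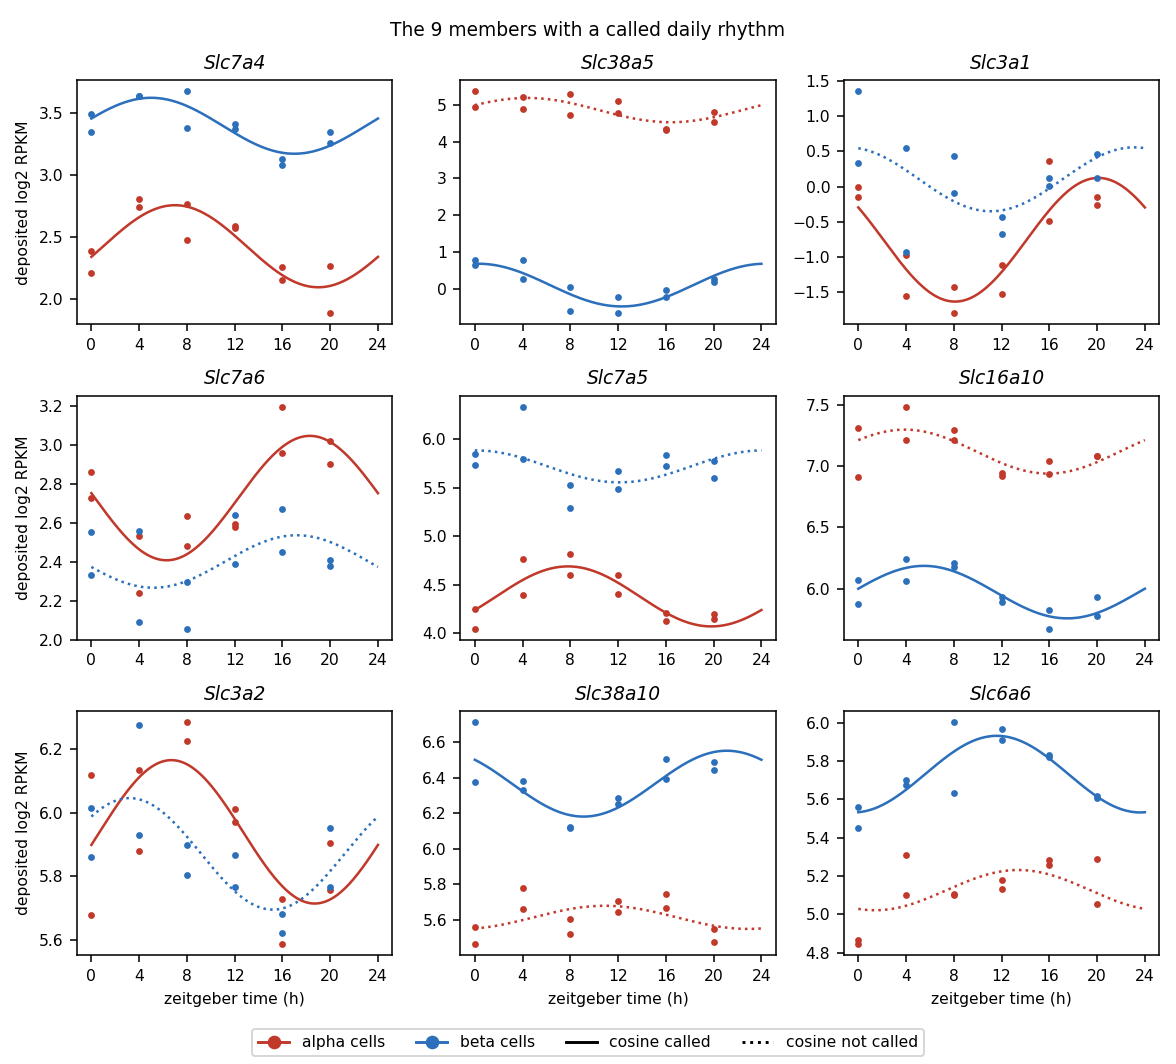
Deposited log2 RPKM (vertical axes) against zeitgeber time in hours for the 9 genes with a called rhythm, with points for the alpha (red) and beta (blue) libraries and fitted cosines, solid where called and dotted where not. Slc7a4 has a solid curve in both cell types, with peaks at 7.0 h in alpha and 5.0 h in beta cells.

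Slc7a4 peaked between ZT4 and ZT8 in both cell types. At ZT0, 4, 8, 12, 16 and 20 it averaged 4.89, 6.80, 6.13, 5.94, 4.57 and 4.21 RPKM in alpha cells and 10.65, 12.4, 11.5, 10.4, 8.56 and 9.82 RPKM in beta cells. The lowest values of alpha cells fell at ZT20 and those of beta cells at ZT16. The fitted swing from trough to peak was 1.58-fold in alpha cells, with a peak at 7.0 ± 0.6 h (SE; limma adjusted p = 0.00322), and 1.37-fold in beta cells, with a peak at 5.0 ± 1.0 h (adjusted p = 0.0258).

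In alpha cells, the CD98 pair peaked near the same time. Slc7a5 averaged 17.7, 24.0, 26.2, 22.7, 17.9 and 17.9 RPKM in alpha cells over the 6 times, a 1.53-fold swing with a peak at 7.8 ± 1.0 h (adjusted p = 0.0386). Its heavy chain partner Slc3a2 averaged 60.3, 64.5, 76.2, 63.5, 50.5 and 56.9 RPKM, a 1.37-fold swing with a peak at 6.7 ± 1.0 h (adjusted p = 0.0487). In beta cells neither was called (adjusted p = 0.273 for Slc7a5 and 0.112 for Slc3a2); Slc7a5 averaged 55.6, 68.2, 42.7, 48.0, 55.2 and 51.5 RPKM there, so its lowest time in beta cells, ZT8, was its highest in alpha cells. The test of the difference of rhythm gave the lowest p of all members for Slc7a5 (unadjusted p = 0.00498), which did not pass the adjustment (adjusted p = 0.317).

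Slc7a6 and Slc3a1 peaked later in alpha cells, with their highest means at ZT16. Slc7a6 averaged 6.896, 5.21, 5.84, 5.96, 8.43 and 7.75 RPKM (1.55-fold, peak at 18.3 ± 0.8 h, adjusted p = 0.0169). Slc3a1 averaged 0.872, 0.346, 0.2501, 0.325, 0.922 and 0.792 RPKM (3.39-fold, peak at 20.1 ± 0.8 h, adjusted p = 0.0139), on 5 to 33 reads per alpha library. Its overlapping partner Prepl had no called rhythm in alpha cells (adjusted p = 0.251). In the same alpha libraries, 2 of 7 beta markers had a called rhythm, against 9.66% of all genes, with a peak near that time. These were Mafa (5.76-fold, peak at 19.6 h, adjusted p = 0.0315) and Pdx1 (2.27-fold, peak at 20.7 h, adjusted p = 0.0374). The other beta markers were not called: Ins1 (adjusted p = 0.484), Ins2 (0.471), Ucn3, Slc2a2 and Nkx6-1. Of the 5 delta markers, 0 were called in alpha cells, with Sst and Rbp4 among those not called. The delta markers Ptprz1, Hhex and Ghsr had fitted swings of 3.35-, 2.40- and 2.54-fold with peaks at 20.2, 19.5 and 21.7 h (adjusted p = 0.0572, 0.0668 and 0.0607). The part of these markers' cell types in the rhythms of Slc3a1 and Slc7a6 was not tested. In beta cells, Slc7a6 (adjusted p = 0.322) and Slc3a1 (0.174) were not called.

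In beta cells, the widest called swing among the members was that of Slc38a5, the gene that is abundant in alpha cells. At ZT0, 4, 8, 12, 16 and 20 it averaged 35.8, 33.0, 32.6, 30.6, 20.1 and 25.4 RPKM in alpha cells, where it was not called (adjusted p = 0.0829). In beta cells it averaged 1.55, 1.39, 0.759, 0.658, 0.827 and 1.08 RPKM (2.24-fold, peak at 0.3 ± 0.7 h, adjusted p = 0.00236), on 10 to 39 reads per library. The call in beta cells was lost when reads were weighted by depth with voom (adjusted p = 0.123). It was kept without the 3 libraries singled out for RNA of the other cell type or for immediate early RNA (alpha ZT4 replicate 1, alpha ZT8 replicate 2 and beta ZT4 replicate 1).

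The other called rhythms of beta cells were small swings of abundant genes. Slc16a10 averaged 139.6, 164.2, 152.8, 122.2, 127.2 and 135.8 RPKM in alpha cells, where it was not called (adjusted p = 0.0808), and 62.7, 71.1, 73.1, 60.1, 53.8 and 57.9 RPKM in beta cells (1.35-fold, peak at 5.5 ± 1.0 h, adjusted p = 0.0274). It was highest at ZT4 in alpha and at ZT8 in beta cells. The taurine carrier Slc6a6 averaged 28.9, 37.0, 34.3, 35.6, 38.6 and 36.1 RPKM in alpha cells (not called, adjusted p = 0.324) and 45.5, 51.6, 56.8, 61.3, 56.7 and 48.9 RPKM in beta cells (1.32-fold, peak at 11.6 ± 1.0 h, adjusted p = 0.0342). Slc38a10 averaged 45.7, 52.6, 47.3, 51.0, 52.2 and 45.7 RPKM in alpha cells (not called, adjusted p = 0.608) and 93.8, 81.7, 69.5, 77.1, 87.3 and 88.2 RPKM in beta cells (1.29-fold, peak at 21.1 ± 1.0 h, adjusted p = 0.0336). In beta cells Slc6a6 was highest at ZT12 and Slc38a10 lowest at ZT8. A test over the 6 times that assumes no cosine called 1 member in alpha cells, Slc7a4 (3.79% of all genes), and 2 in beta cells, Slc38a5 and Slc1a4 (8.64% of all genes). Slc1a4 (adjusted p = 0.0334) had its 2 lowest beta libraries, 2.77 and 4.55 RPKM, at ZT8 and its highest, 14.0 RPKM, at ZT4.

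Most of these rhythm calls rest on a narrow margin. The alpha call of Slc7a4 and the beta call of Slc38a5 held whichever library was left out. The alpha call of Slc3a1 was lost without alpha ZT8 replicate 1 (adjusted p = 0.0626), and that of Slc7a6 without alpha ZT8 replicate 1 (0.052) or alpha ZT16 replicate 1 (0.0545). Slc7a5 lost its alpha call without any 1 of 9 alpha libraries (ZT0 replicate 2, ZT4 replicate 2, both at ZT8, both at ZT12, both at ZT16 and ZT20 replicate 1), with adjusted p of 0.0507 to 0.146. Slc3a2 lost it without any 1 of 8 alpha libraries (the same but for ZT0 replicate 2) or 8 beta libraries (ZT0 replicate 1, both at ZT8, both at ZT12, both at ZT16 and ZT20 replicate 2), with adjusted p of 0.0504 to 0.174. In beta cells, Slc7a4 lost its call without any 1 of 4 beta libraries (ZT4 replicate 2, ZT8 replicate 1 and both at ZT16; 0.0608 to 0.0883), and Slc16a10 without any 1 of 6 (ZT4 replicate 2, both at ZT8, both at ZT16 and ZT20 replicate 2; 0.0531 to 0.094). Slc38a10 lost it without any 1 of 7 (the 6 named for Slc16a10 and ZT12 replicate 1; 0.0516 to 0.0951), and Slc6a6 without any 1 of 8 (ZT0 replicate 1, ZT4 replicate 2, ZT8 replicate 1, both at ZT12, both at ZT16 and ZT20 replicate 2; 0.0501 to 0.0816). Scaling also ended the beta call of Slc38a10, with quantile normalization (0.0828) or equal library medians (0.0516), and the alpha call of Slc3a2, with equal library medians (0.0533). Of the 10 calls, the test with no cosine kept those of Slc7a4 in alpha and Slc38a5 in beta cells.

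Genes around the carriers were read in the same way, from lists of pathway genes. The transcription factor ATF4 switches on amino acid synthesis and uptake when amino acids run short. Of its 22 listed targets, a list that holds Atf4 itself, 10 were lower in alpha cells, as were 9.54% of all genes. By that rule 0 were higher, against 11.2% of all genes. Below 2-fold some pointed to alpha cells, such as Sesn2 (log2 difference 0.69, limma adjusted p = 2.78e-10) and Cth (0.86, adjusted p = 0.000289). The median log2 difference over the 22 was -0.84, and 0.013 over all genes. Among them, the stress regulator Nupr1 averaged 0.327 RPKM in alpha cells against 15.03 RPKM in beta cells, and the related factor Atf5 averaged 3.28 RPKM in alpha cells against 48.05 RPKM in beta cells. Phgdh, the first enzyme of serine synthesis, averaged 0.403 RPKM in alpha cells against 5.74 RPKM in beta cells, and Trib3, an inhibitor of ATF4, averaged 0.211 RPKM in alpha cells against 3.56 RPKM in beta cells. In the list of amino acid breakdown and synthesis, 8 of 30 genes were higher and 9 lower in alpha cells, against 11.2% and 9.54% of all genes. Oat and Arg1, which act on ornithine and arginine, averaged 35.5 and 51.0 RPKM in alpha cells against 1.03 and 4.62 RPKM in beta cells, while Gad1, which makes GABA from glutamate, and Th, which acts on tyrosine, averaged 0.411 and 0.592 RPKM in alpha cells against 24.7 and 21.7 RPKM in beta cells.

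The receptor list leaned to alpha cells, with 8 of 21 genes higher and 3 lower there (11.2% and 9.54% of all genes), and a median log2 difference of 0.67. The glutamate receptor subunits Grik2 and Gria2 averaged 1.55 and 32.4 RPKM in alpha cells against 0.0273 and 2.97 RPKM in beta cells. The GABA receptor subunit Gabrg1 averaged 1.85 RPKM in alpha cells against 0.0596 RPKM in beta cells, while Grin1, the obligatory subunit of NMDA receptors, averaged 0.245 RPKM in alpha cells against 6.49 RPKM in beta cells. Of 29 genes of amino acid sensing by mTORC1, 2 were higher and 2 lower in alpha cells (11.2% and 9.54% of all genes), with a median log2 difference of -0.07: Gatsl2 and Rragb averaged 76.7 and 74.5 RPKM in alpha cells against 18.5 and 18.6 RPKM in beta cells, and Rragd and Flcn 9.55 and 11.6 RPKM in alpha cells against 24.2 and 25.2 RPKM in beta cells. Of 9 vesicular and peptide carriers, 2 were higher and 2 lower in alpha cells (11.2% and 9.54% of all genes).

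Whether members varied with the ATF4 targets from library to library was examined within each cell type, over 12 libraries that span the 6 times, as the correlation of each member's log2 level with the mean log2 level of the 22 targets (62 relations in all, 100000 permutations, two-sided). In beta cells, 4 members passed the adjusted p under 0.05 for Pearson's r. Slc1a4 had r = 0.85 (permutation p = 0.00076, adjusted p = 0.016) and Spearman's rho = 0.83 (permutation p = 0.0013, adjusted p = 0.045), and r was 0.87 without the 2 libraries farthest from the median of the list. Slc7a11 had r = 0.87 (adjusted permutation p = 0.016) and rho = 0.64 (0.18), with r = 0.64 without the 2 farthest libraries; Slc38a7 had r = 0.84 (0.016) and rho = 0.74 (0.10), with r = 0.80; and Slc6a9 had r = 0.78 (0.02) and rho = 0.73 (0.10), with r = 0.63. Slc38a2 passed for rho only (rho = 0.83, adjusted permutation p = 0.045; r = 0.71, adjusted p = 0.085), and its r was 0.94 without the 2 farthest libraries.

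The list level in beta cells ran from 2.92 to 4.04 on the log2 scale with a median of 3.20, and the beta libraries at ZT4 were farthest from the median, at 4.04 for replicate 2 and 3.61 for replicate 1. Without beta ZT4 replicate 2, none of the 4 relations passed (r of 0.72 to 0.80, adjusted permutation p of 0.06 to 0.11). In alpha cells the list varied less, from 1.48 to 2.02, and 1 member passed for r, Slc7a4 (r = 0.78, adjusted permutation p = 0.041; rho = 0.73, 0.10), which was lost in 9 of 17 settings. Within times, over the differences between the 2 libraries of each of the 6 times, Slc1a4 in beta cells had r = 0.93 and moved with the list at 6 of 6 times (exact permutation p = 0.031, the smallest this design can give; adjusted p = 0.48). In beta cells the r within times was 0.72 for Slc7a11 (4 of 6 times, exact permutation p = 0.12), 0.72 for Slc38a7 (5 of 6, p = 0.094), 0.70 for Slc38a2 (5 of 6, p = 0.062) and 0.19 for Slc6a9 (4 of 6, p = 0.62), and in alpha cells it was 0.31 for Slc7a4 (2 of 6, p = 0.94). None passed the adjustment over the 62 relations. With 0.031 as the smallest p of this design, that adjustment could be passed only if most of the 62 relations reached it. The adjusted test therefore cannot decide whether the relations that passed over the 12 libraries hold within times.

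**Figure D5:**
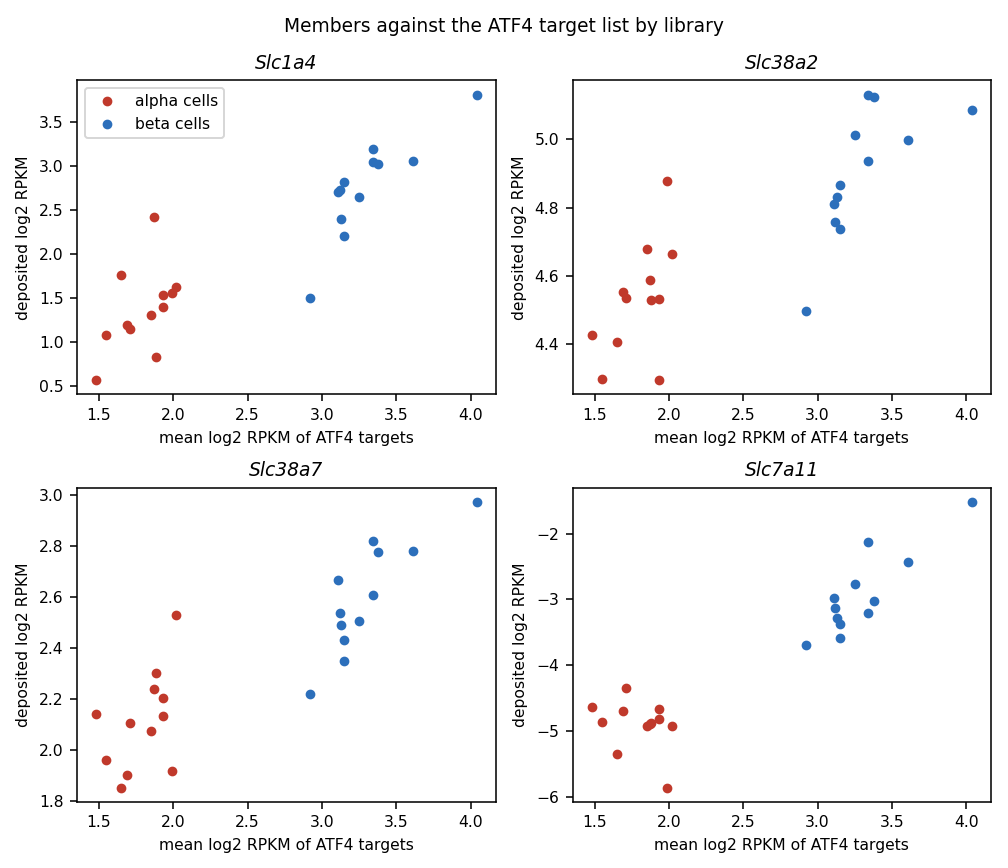
Deposited log2 RPKM of Slc1a4, Slc38a2, Slc38a7 and Slc7a11 (vertical axes) against the mean log2 RPKM of 22 ATF4 target genes (horizontal axes), with 1 point for each of the 12 alpha (red) and 12 beta (blue) libraries. Beta libraries lie to the right, between 2.92 and 4.04, and alpha libraries to the left, between 1.48 and 2.02.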

How the data were processed

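The authors deposited a table of log2 RPKM values for 14027 genes in 24 libraries. Per the labels' protocols, total RNA was purified with a micro column kit and made into stranded libraries after ribosomal RNA removal. STAR, edgeR and the build mm10 are named in the submitters' processing notes. No source used here names the gene annotation, the strand mode of counting or a gene filter. Besides Slc7a7, Slc3a1 and Slc6a9, other members overlap a gene on the other strand in GENCODE M21. Among them are Slc6a19 (with Slc6a19os), Slc7a4 (P2rx6), Slc7a5 (Gm20388), Slc7a14 (Gm15496) and Slc38a10 (Gm11769). Where such genes overlap, their reads cannot be told apart without the strand mode. The deposited log2 values hold a prior count scaled to library size (mean 2.0 reads). Subtracting it gave whole reads for all genes, with a largest deviation of 9.9e-08 from a whole number, and from these the RPKM values without a prior. A gene had a median of 206 reads per library, and 0.774% of values were 0. At such low counts the number of reads limits the precision.

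All tests were run on the deposited log2 values with limma 3.58.1 in R 4.3.3, with an intensity trend and robust moderation, over all 14027 genes and all 24 libraries, and adjusted by the Benjamini-Hochberg method. Cell types were compared with time as a factor. Rhythms were tested as a cosine and sine of 24 h for each cell type in one model, and their difference in the same model. The planned tests were checked on simulated data. Alternatives were other pseudocounts, a filter on mean log2 above 0, quantile normalization, equal library medians, voom weights on the recovered reads, no time covariate, a test over the 6 times with no cosine, a replicate block, and leaving out each library or 3 libraries together. The correlation with ATF4 targets and its alternatives were added after seeing the data. Members named with values were those called between cell types, those called rhythmic and those with a mean of at least 10 RPKM in either cell type. Slc7a1, Slc6a8, Slc38a7 and Slc38a9 fall outside that rule and were named for their roles after their values were seen. Up to 4 genes by size of fold were named from each companion list. Members, lists and tests were chosen with earlier results of these data known. Gene positions are from GENCODE M21 on mm10, in which all 31 member identifiers had the same symbol, and promoter sequences from RefSeq.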

Additional observations from a re-analysis of the deposited data

How the results depend on the processing

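The 12 level calls among the members held in number without any single library (12 to 12, and 2872 to 2939 against 2903 over all genes). They fell to 7 with log2(RPKM + 1) and 7 with mean log2 above 0, where all genes gave 1602 and 1755. With that filter the called members Slc7a7, Slc38a11, Slc7a11, Slc6a9 and Slc6a19 were not tested, and no tested member lost its call. The second drop is thus construction among the members, and in part over all genes, since low genes were not tested. The share of all calls that were higher in alpha cells was 53.9%, and 43.1% with log2(RPKM + 1) and 42.1% with the filter. Quantile normalization turned Slc38a4 (0.10 against -0.16) and Slc43a2 (0.05 against -0.15), and took Slc3a1 (-1.21) and Slc38a6 (-1.25) past the 2-fold limit; the cause was not tested. Rhythm calls moved more. In alpha cells, 5 members became 8 with quantile normalization and 1 with the any-time F-test (all genes 1355, 2096 and 531), and 1 to 7 without single libraries (all genes 348 to 2252), lowest without alpha ZT8 replicate 1 and, for members, highest without alpha ZT4 replicate 1. In beta cells, 5 members became 9 with log2(RPKM + 1) and 2 with the any-time F-test (all genes 2241, 2384 and 1212). Without single libraries there were 1 to 8 (all genes 1077 to 3100). There was 1 without beta ZT8 replicate 1, ZT16 replicate 1 or ZT16 replicate 2, and there were 8 without beta ZT20 replicate 1. The difference of rhythm gave 0 members in every alternative run (0 to 0 without single libraries) and 10 genes in all, against 44 with log2(RPKM + 1), 18 with quantile normalization, 2 with the cell type by time interaction and 4 to 14 without single libraries. Without alpha ZT4 replicate 1, alpha ZT8 replicate 2 and beta ZT4 replicate 1 together, the members gave 13 level calls, 6 rhythms in alpha, 5 in beta cells and 0 differences of rhythm.

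Same-numbered alpha and beta libraries correlated in their deviations at 0.65, 0.42, 0.34, 0.10, 0.19 and 0.04 from ZT0 to ZT20. All were positive, though not every pair exceeded 0.1. Immediate early sums were lowest at ZT8, replicate 1, and highest at ZT8, replicate 2, in both cell types. Whether same-numbered libraries share an origin was not tested, and the main tests do not account for such pairing. For the level and the difference of rhythm, the replicate block was 12 blocks of time and replicate number. For the rhythm of each cell type it was only an offset between replicate numbers, shared by all times and both cell types. With the 12 blocks, there were 12 level calls among the members, and the difference of rhythm gave 0 members and 174 genes in all, against 10. With the offset, the rhythm counts were 4 in alpha cells, where Slc3a2 lost its call (limma adjusted p = 0.0585), and 5 in beta cells. Depth limits Slc7a11, Slc6a9, Slc7a7, Slc38a11 and Slc6a19, which had few reads per library in the lower cell type.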
